A study of Rattus norvegicus with 6 samples.

Results

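Lin28a, Lin28b, Hmga1, Hmga2, Igf2bp1, Igf2bp2 and Igf2bp3 encode the oncofetal proteins of the LIN28, HMGA and IGF2BP families. Their accessible sites (ACS) were taken as all ACS whose listed nearest gene carries one of these symbols. This gave 51 of 101603 distinct ACS: 31 listed with Hmga2, 12 with Igf2bp2, 3 with Igf2bp1, 3 with Hmga1 and 2 with Lin28a. No ACS was listed with Lin28b or Igf2bp3, by symbol or by gene identifier, and the reason was not tested. The ACS were measured by ATAC-seq, which reads open chromatin from the places a transposase (Tn5) can cut and tag, in dissociated whole islet cells of untreated Sprague-Dawley rats. The Adult group held 3 libraries, each from 1 male of about 3 months (replicates 4, 5 and 6), and the P10 group held 3 libraries, each from a mix of pups of 1 litter at postnatal day 10 (replicates 1, 2 and 3). Male and female pups were used, and their pancreas was digested by shaking rather than through the duct, so age, sex and digestion cannot be told apart. In whole islets, fewer cells of a type and less open chromatin per cell cannot be told apart either.

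LIN28A and LIN28B are RNA-binding proteins that block the maturation of the let-7 microRNAs. The let-7 family in turn represses transcripts that include those of Lin28, Hmga2 and the Igf2bp genes, so that each side of the circuit restrains the other. HMGA1 and HMGA2 are architectural chromatin proteins that bind AT-rich DNA in its minor groove. HMGA2 is known to drive Igf2bp2 transcription. IGF2BP1, IGF2BP2 and IGF2BP3 bind mRNAs, Igf2 mRNA among them, and control their translation and stability. The genes are known for high activity in embryonic tissues and in tumours. IGF2BP2 stays on in many adult tissues and its gene is a type 2 diabetes risk locus expressed in islets.

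The adult libraries held between 7916919 and 11903909 Tn5 integrations in ACS, and the P10 libraries between 13491534 and 21168463. Counts were scaled to CPM, counts per 1000000 integrations in ACS, with trimmed mean of M values (TMM) factors, and 1 integration was worth 0.046 to 0.129 CPM. Differences were tested with the quasi-likelihood F-test of edgeR over all ACS. An ACS was called Up (more accessible in adults) or Down (more accessible in P10) at a p-value under 0.05 and a false discovery rate (FDR) under 0.2, the limits of the study. Log2 fold changes are Adult over P10, and standard errors (SE) were derived as the size of the log2 fold change over the square root of F. Endocrine markers were open in every library, with 80 ACS at 6 of 8 beta cell genes, 111 at 5 of 5 alpha cell genes and 10 at both delta cell genes. No ACS was listed with the beta cell genes Mafa and G6pc2.

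The promoters of Igf2bp2, Hmga2 and Lin28a, whose start sites are described below, and of Igf2bp3, which is described through its neighbours, are shown as the 250 bases before the RefSeq start, 5′ to 3′, with every GC box (GGGCGG on either strand) in capitals. They come from the GRCr8 assembly, while the coordinates of all ACS are those of Rn5, and the builds were not aligned.
Igf2bp2, GRCr8 chr11:92378658-92378907, plus strand: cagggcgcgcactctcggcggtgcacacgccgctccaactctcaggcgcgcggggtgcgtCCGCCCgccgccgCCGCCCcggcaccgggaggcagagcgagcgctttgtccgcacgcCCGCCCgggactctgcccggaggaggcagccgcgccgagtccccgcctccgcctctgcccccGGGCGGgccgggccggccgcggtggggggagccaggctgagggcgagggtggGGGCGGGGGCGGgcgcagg
Igf2bp3, GRCr8 chr4:79525731-79525980, minus strand: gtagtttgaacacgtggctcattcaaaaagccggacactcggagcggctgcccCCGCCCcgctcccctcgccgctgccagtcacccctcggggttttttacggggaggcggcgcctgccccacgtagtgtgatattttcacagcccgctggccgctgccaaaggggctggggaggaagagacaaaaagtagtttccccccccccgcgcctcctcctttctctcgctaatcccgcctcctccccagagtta
Hmga2, GRCr8 chr7:57880342-57880591, minus strand: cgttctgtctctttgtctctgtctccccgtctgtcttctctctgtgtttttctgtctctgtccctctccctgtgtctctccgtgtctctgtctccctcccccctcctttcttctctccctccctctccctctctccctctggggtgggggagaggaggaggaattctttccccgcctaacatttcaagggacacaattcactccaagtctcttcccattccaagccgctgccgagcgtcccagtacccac
Lin28a, GRCr8 chr5:151527885-151528134, minus strand: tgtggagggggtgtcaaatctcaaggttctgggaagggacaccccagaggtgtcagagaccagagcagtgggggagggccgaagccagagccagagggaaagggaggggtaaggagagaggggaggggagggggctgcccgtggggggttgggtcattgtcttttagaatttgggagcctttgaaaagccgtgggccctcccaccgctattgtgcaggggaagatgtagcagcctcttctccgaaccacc
The promoter of Igf2bp2 had 82.4% G and C, above 99.5% of 33465 rat promoters, with 39 CG pairs and 6 GC boxes. The promoter of Igf2bp3 had 63.2% G and C and 1 GC box, and it was the only one of the 6 promoters in the table with an E-box (CACGTG). Those of Hmga2 and Lin28a had 56.4% and 60.4% G and C and no GC box. Among the promoters not shown, that of Hmga1 had 76.8% G and C, 41 CG pairs and 5 GC boxes. That of Lin28b had 45.6% G and C and no GC box. A GC box is found in 30.5% of all promoters of this length and an E-box in 5.59%. The 9 letters CAACAGGTG, the motif bound by SCRT1, were in none of the 6 windows on either strand, and they are in 0.176% of all promoters. No matches overlapped. These matches describe the letters only.

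Of the 51 ACS, 10 were Down and 3 were Up, or 19.6% and 5.88%, where 6.63% of all ACS were Down and 12.3% were Up. The 10 Down ACS were divided among Igf2bp2 with 7, Hmga2 with 2 and Igf2bp1 with 1. The 3 Up ACS were 2 of Hmga2 and 1 of Igf2bp2. At 13 of the 51 ACS all 3 adult libraries were lower than any P10 library (10.9% of all ACS), and at 1 they were all higher (13.8% of all ACS). The log2 fold changes of the 51 ACS ran from -1.71 to 0.89 with a median of -0.13, against a median of -0.01 over all ACS. This median of the 51 moved to -0.04 without Adult replicate 6, to -0.06 without P10 replicate 1 and to -0.23 without Adult replicate 5. The 38 ACS that were not called ran from -0.71 to 0.55. ACS of 1 gene lie in 1 locus and share the libraries, so they are not independent of each other.

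**Figure D1:**
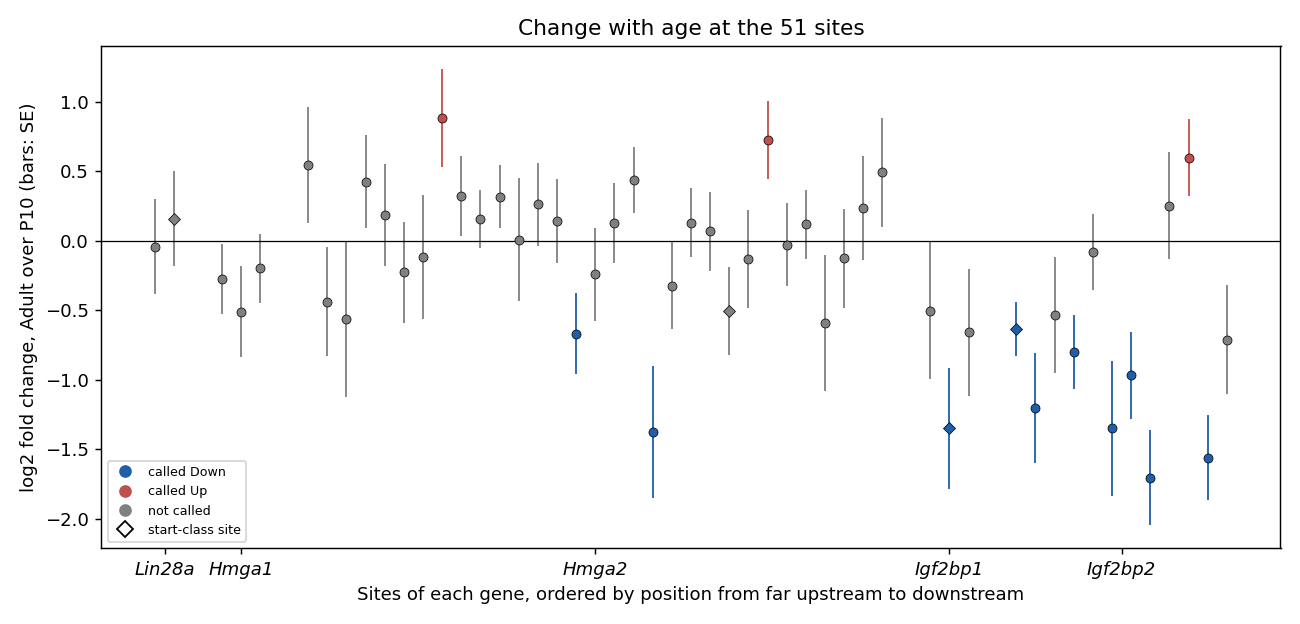
Log2 fold change (Adult over P10, vertical axis) of each of the 51 ACS, grouped by gene and ordered by position; bars are standard errors, blue is Down, red is Up, grey is not called and diamonds are start-class ACS. Most ACS of Igf2bp2 lie below 0, while those of Hmga2 lie on both sides, between -1.38 and 0.89.

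Igf2bp2 was less accessible in adult islets at most of its ACS. Of its 12 ACS, 7 fell with age, 1 rose and 4 were not called, and 58.3% Down compares with 6.63% of all ACS. All 12 ACS lie in or across the start of the gene, on chromosome 11 and reaching 98489 bp into it. The median log2 fold change was -0.76, and every adult library was below every P10 library at 8 of the 12 ACS.

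The start site of Igf2bp2 (chr11:85556329-85557619, 1291 bp across the transcription start) had the highest count of the 12 ACS. Per kb it was not the highest, since the ACS at 92572 bp had 29.2 CPM per kb in P10 and that at 54812 bp 23.0 in adults, against 21.2 and 13.6 at the start. It had 18.3, 20.1 and 14.4 CPM in the adult libraries and 30.4, 28.5 and 23.3 CPM in the P10 libraries. All adult values were below all P10 values. The means were 17.6 ± 2.87 CPM in adults and 27.4 ± 3.68 CPM in P10 (SD, n = 3), a log2 fold change of -0.63 (SE 0.19, FDR 0.036). This call was kept in each of the 16 alternative settings.

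The steepest falls lay inside the gene. At 37307 bp from the start (chr11:85594572-85594826) the adult libraries had 2.26, 1.85 and 1.16 CPM and the P10 libraries 7.44, 6.13 and 4.02 CPM. The P10 mean was 3.34 times the adult mean, with a log2 fold change of -1.71 (SE 0.34, FDR 0.0014). At 92572 bp (chr11:85649837-85650083) the adult libraries had 2.62, 2.34 and 2.32 CPM and the P10 libraries 7.90, 8.70 and 5.02 CPM. These groups were also apart, with a log2 fold change of -1.56 (SE 0.31, FDR 0.0011). Both ACS kept their call in all 16 alternatives.

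Between the start and the middle of the gene, 4 more ACS were Down. The ACS at 9877 bp (chr11:85567142-85567343) had 2.44, 0.88 and 1.03 CPM in adults and 4.28, 2.50 and 3.44 CPM in P10, a log2 fold change of -1.21 (SE 0.40, FDR 0.054). The lowest P10 library and the highest adult library nearly met here. The ACS at 13908 bp (chr11:85571173-85571684) had 8.59, 5.26 and 5.80 CPM in adults and 15.3, 9.56 and 9.41 CPM in P10, a log2 fold change of -0.80 (SE 0.26, FDR 0.054). P10 replicate 1 stood above the other P10 libraries, and without it the FDR was 0.24 and the call was lost.

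The ACS at 25710 bp (chr11:85582975-85583216) was low in every library, with 0.63, 1.46 and 0.26 CPM in adults and 3.02, 1.57 and 1.59 CPM in P10. Its log2 fold change of -1.35 (SE 0.48, FDR 0.083) rested on 2 to 15 integrations per adult library. The call was lost without Adult replicate 4, Adult replicate 6 or P10 replicate 1, with an FDR of 0.22, 0.27 and 0.33. The ACS at 28743 bp (chr11:85586008-85586309) had 3.07, 1.85 and 2.84 CPM in adults and 5.16, 5.49 and 4.55 CPM in P10. It was called without each library, with a log2 fold change of -0.97 (SE 0.31, FDR 0.049).

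1 ACS of Igf2bp2 went the other way. At 54812 bp from the start (chr11:85612077-85612566) the adult libraries had 15.3, 12.9 and 5.67 CPM and the P10 libraries 7.72, 8.20 and 6.66 CPM. Adult replicates 4 and 5 lay above all P10 libraries and Adult replicate 6 below them all. The log2 fold change was 0.60 (SE 0.27) with an FDR of 0.1996, just inside the limit, and the Up call held in 1 of 16 alternatives, the one without Adult replicate 6 (log2 fold change 0.90, FDR 0.024). Without another library the FDR was between 0.25 and 0.62.

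This ACS was then compared with the other ACS of the gene, in a test chosen after its values were seen. Its share of all integrations in ACS of Igf2bp2 was 23.3%, 22.2% and 13.6% in the adult libraries and 8.08%, 9.75% and 9.88% in the P10 libraries. The means were 19.7% ± 5.30 and 9.23% ± 1.0 (SD, n = 3), given as a description since the ACS was picked for this difference. The share at the start site was 32.3% ± 3.89 in adults and 33.4% ± 1.42 in P10. In edgeR's test of each ACS against the rest of its gene, the log2 fold change at 54812 bp exceeded that of the rest by 1.18 (FDR 0.0028), where 14.6% of 91697 ACS were called by this test. The difference stayed between 1.04 and 1.32, with an FDR of at most 0.038, without any 1 library. The ACS at 37307 and 92572 bp differed from the rest in the other direction, by -1.13 (FDR 0.042) and -0.98 (FDR 0.063). Over the gene, the changes of the 12 ACS differed among each other (FDR 0.00017), as in 44.0% of 10731 genes with at least 2 ACS. This test takes the ACS of a gene as independent within a library, which was not checked.

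The other 4 ACS of Igf2bp2 were not called. The last one, at 98489 bp (chr11:85655754-85656040), had 1.54, 1.46 and 1.03 CPM in adults and 2.28, 2.71 and 1.74 CPM in P10. The groups did not overlap, but the log2 fold change of -0.71 (SE 0.39) had an FDR of 0.31. The remaining 3, at 12453, 18177 and 41087 bp, had log2 fold changes of -0.53, -0.08 and 0.25.

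**Figure D2:**
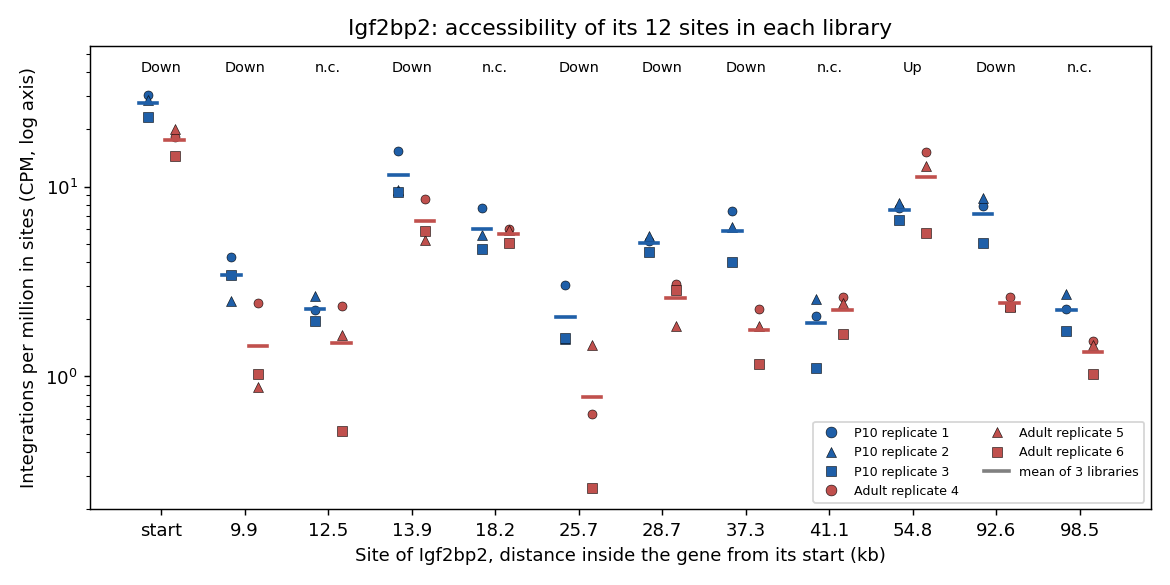
CPM (log axis) of each library at the 12 ACS of Igf2bp2, ordered by distance into the gene; blue is P10, red is Adult, bars are means of 3 libraries, and the words above give the call (n.c., not called). The red points lie below the blue ones at the start and at 8 of 12 ACS in all, and 2 of the 3 adult libraries lie above P10 at 54.8 kb.

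Per kb, the start site of Igf2bp1 was the least accessible of the 4 start-class ACS (within 1000 bp of a start) of these genes, and it fell with age. The ACS lies inside the gene, 481 bp from its start (chr10:83627953-83628373). It had 4, 17 and 12 integrations in the adult libraries, or 0.36, 1.66 and 1.55 CPM. The P10 libraries had 80, 41 and 42 integrations, or 3.72, 2.92 and 2.22 CPM. All adult libraries were lower, and the log2 fold change was -1.35 (SE 0.44, FDR 0.0495). The call was lost without Adult replicate 4, the lowest library (log2 fold change -0.88, FDR 0.25). The other ACS of Igf2bp1 lie 1598 bp upstream and 60927 bp downstream of the start, with log2 fold changes of -0.50 and -0.66, and neither was called. No promoter sequence of Igf2bp1 was used here.

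At the Hmga2 start the adult libraries were lower without passing the test. The start-class ACS lies 735 bp upstream (chr7:65491370-65491729) and had 2.26, 3.21 and 2.58 CPM in adults and 3.76, 3.71 and 3.96 CPM in P10. The groups did not overlap, and the P10 libraries differed little among each other. The log2 fold change was -0.51 (SE 0.32) with an FDR of 0.39. At the start-class ACS of Lin28a, 954 bp upstream (chr5:155936471-155936962), the adult libraries had 6.60, 7.60 and 3.09 CPM and the P10 libraries 8.18, 2.71 and 4.60 CPM. The groups overlapped fully, with a log2 fold change of 0.16 (SE 0.34, FDR 0.86). Of the 4 start-class ACS, those of Igf2bp1 and Igf2bp2 were Down, and 7.87% of the 11055 start-class ACS of the table were.

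Per kb of ACS, which allows the genes to be set side by side, the start site of Igf2bp2 was the highest at 21.2 CPM per kb in P10 and 13.6 in adults. The start sites of Hmga2 and Lin28a followed with 10.6 and 10.5 CPM per kb in P10 and 7.46 and 11.7 in adults. That of Igf2bp1 was lowest at 7.02 CPM per kb in P10 and 2.82 in adults. The libraries of Lin28a were widely spread, and they overlapped those of Hmga2 at both ages. In P10 they lay below those of Igf2bp2 and overlapped those of Igf2bp1, and in adults they overlapped those of Igf2bp2 and lay above those of Igf2bp1. The libraries of Hmga2 lay above those of Igf2bp1 at both ages. Among all start-class ACS, the mean level over both ages was above 31.7% of them for Igf2bp2, 11.7% for Lin28a, 6.28% for Hmga2 and 0.479% for Igf2bp1.

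**Figure D3:**
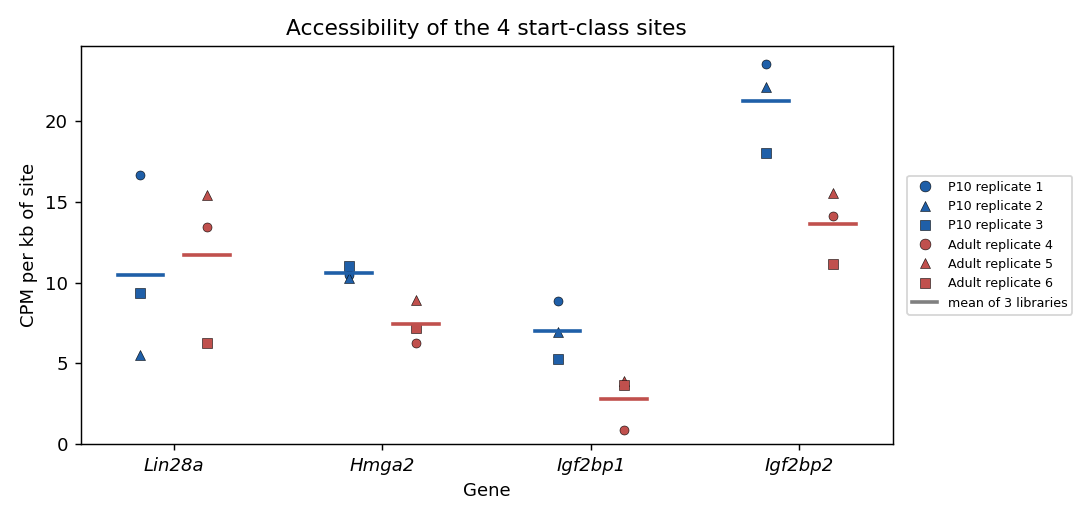
CPM per kb of the start-class ACS of Lin28a, Hmga2, Igf2bp1 and Igf2bp2 in each library; blue is P10, red is Adult and bars are means of 3 libraries. P10 lies above Adult without overlap at Hmga2, Igf2bp1 and Igf2bp2, while the libraries of Lin28a overlap between 5.51 and 16.6.

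Hmga2 held the most ACS and showed no shared direction. Of its 31 ACS, 22 lie upstream and distal, between 76426 and 590664 bp from the start, and 7 lie in the gene or across its end. The median log2 fold change over the 31 was 0.12, with 18 above 0 and 13 below. The calls were 2 Down (6.45%) and 2 Up (6.45%), where 6.63% of all ACS were Down and 12.3% were Up. The other 27 lay between -0.59 and 0.55.

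Both Down ACS of Hmga2 are upstream. The one 140923 bp from the start (chr7:65631558-65631786) had 0.27, 1.17 and 0.64 CPM in adults and 1.77, 1.57 and 2.06 CPM in P10. The groups were apart at 3 to 12 integrations per adult library, with a log2 fold change of -1.38 (SE 0.48, FDR 0.070). The call was lost without Adult replicate 4 (FDR 0.28) or P10 replicate 3 (FDR 0.22). The one 233117 bp from the start (chr7:65723752-65724299) had 2.62, 3.80 and 4.77 CPM in adults and 5.95, 5.21 and 6.40 CPM in P10. Its log2 fold change of -0.67 (SE 0.29, FDR 0.17) was called in 1 of the 6 fits that left out a library, the one without Adult replicate 6.

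The Up ACS of Hmga2 were 1 inside and 1 upstream. At 69617 bp inside the gene (chr7:65421018-65421563) the adult libraries had 8.49, 5.45 and 9.54 CPM and the P10 libraries 4.04, 5.92 and 4.28 CPM. Adult replicate 5 lay within the P10 range, and the log2 fold change was 0.72 (SE 0.28, FDR 0.11). The call held in 2 of 6 fits without 1 library, those without Adult replicate 5 or P10 replicate 2. At 366985 bp upstream (chr7:65857620-65857876) the adult libraries had 4.88, 2.92 and 3.61 CPM and the P10 libraries 2.84, 1.36 and 1.90 CPM. This was the 1 ACS of the 51 with all adult libraries above all P10 libraries, with a log2 fold change of 0.89 (SE 0.35, FDR 0.13). Its call was lost without Adult replicate 4, P10 replicate 2 or P10 replicate 3. The ACS of Hmga2 with the highest mean count over the 6 libraries, 333331 bp upstream (chr7:65823966-65824707), had 18.0, 18.5 and 13.7 CPM in adults and 17.6, 14.4 and 13.2 CPM in P10, a log2 fold change of 0.15 (SE 0.21, FDR 0.75).

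None of the 3 ACS of Hmga1 and the 2 of Lin28a was called by edgeR, by DESeq2 or by limma voom, and none had an unadjusted p-value under 0.05. The ACS of Hmga1 with the highest mean count lies 50771 bp upstream of the listed start (chr20:9287593-9288028). It had 18.4, 14.2 and 12.9 CPM in adults and 28.3, 14.0 and 12.9 CPM in P10. P10 replicate 1 stood alone above the other 5 libraries, and the log2 fold change was -0.28 (SE 0.25, FDR 0.59). Without this library the value was 0.17 (FDR 0.74). The ACS next to it, 49565 bp upstream (chr20:9288799-9289068), had 1.99, 3.31 and 2.97 CPM in adults and 4.79, 3.50 and 3.38 CPM in P10. The groups did not overlap, and the log2 fold change of -0.51 (SE 0.33) had an FDR of 0.40. The third ACS, 3088 bp upstream of the listed start, had a log2 fold change of -0.20. The distal ACS of Lin28a, 15851 bp upstream, stood at -0.04 on the log2 scale (SE 0.34).

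Counts summed over the ACS of each gene were tested in the same way over 13834 gene symbols, of which 7.67% were Down and 10.5% were Up. The sum of Igf2bp2 was 65.9, 63.4 and 46.7 CPM in the adult libraries and 98.2, 90.7 and 75.2 CPM in P10. It was Down with a log2 fold change of -0.58 (SE 0.14, FDR 0.020) and was called without each library. Without the ACS at 54812 bp, an alternative added after seeing the data, the value was -0.77 (FDR 0.0027). That ACS was picked for its rise, so a steeper fall of the remaining sum follows from the choice. The sum of Igf2bp1 was 1.81, 4.15 and 4.46 CPM in adults and 7.70, 6.53 and 4.83 CPM in P10. It was Down with a log2 fold change of -0.91 (SE 0.33, FDR 0.11), and the call was lost without Adult replicate 4 (FDR 0.38), P10 replicate 1 (FDR 0.21) or P10 replicate 2 (FDR 0.30).

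The sum of Hmga2 was 163.6, 166.4 and 153.5 CPM in adults and 149.6, 148.9 and 147.9 CPM in P10. The adult libraries were all higher, by a log2 fold change of 0.12 (SE 0.11, FDR 0.56). The sums of Hmga1 and Lin28a had log2 fold changes of -0.28 (SE 0.17, FDR 0.37) and 0.09 (SE 0.28, FDR 0.89). The sum of Hmga1 was -0.05 without P10 replicate 1 and was Down without P10 replicate 3 (log2 fold change -0.43, FDR 0.16). With all 6 libraries, the sums of both Igf2bp genes were called and the other 3 were not.

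**Figure D4:**
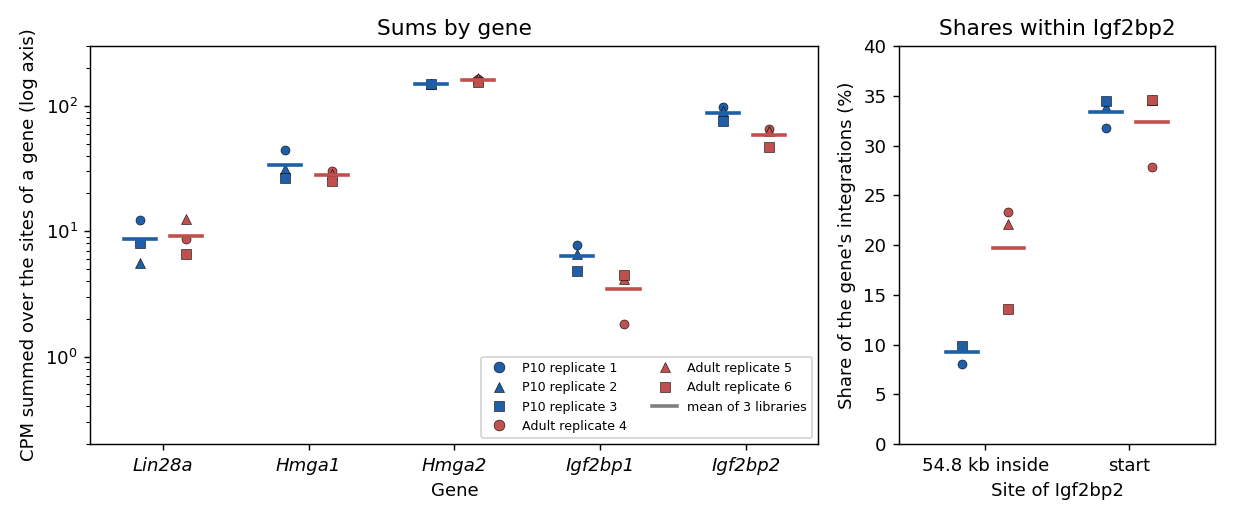
Left, CPM summed over all ACS of each gene (log axis) per library; right, share of the integrations of Igf2bp2 that fall in its ACS at 54.8 kb and at its start, in percent; blue is P10, red is Adult and bars are means of 3 libraries. The sums of Igf2bp1 and Igf2bp2 are lower in every adult library, and the share at 54.8 kb is 13.6% to 23.3% in adults against 8.08% to 9.88% in P10.

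Igf2bp3 and Lin28b could be approached only through their neighbours. In RefSeq (GRCr8) Igf2bp3 is the only coding gene between Malsu1 and Tra2a, on the minus strand with its start towards Tra2a, and Lin28b is the only coding gene between Bves and Hace1. The ACS between the same neighbours in Rn5 are listed with those neighbours and are not counted among the 51. They were chosen as intervals after their values had been seen, and whether any of them acts on Igf2bp3 or Lin28b was not tested.

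Between Malsu1 and Tra2a (chr4:143432793-143594549) 5 of 10 ACS were Down and 1 was Up (all ACS, 6.63% and 12.3%), and the 5 Down ACS were the ones nearest to Tra2a. At the ACS 22.7 kb from Tra2a (chr4:143571263-143571827) the adult libraries had 28, 54 and 15 integrations and the P10 libraries 543, 349 and 391. This was 2.53, 5.26 and 1.93 CPM against 25.2, 24.9 and 20.7 CPM. The P10 mean was 7.28 times the adult mean, with a log2 fold change of -2.84 (SE 0.28, FDR 2.3e-07), and the ACS ranked 30 of 101603 by p-value. At the ACS 25.4 kb from Tra2a (chr4:143568974-143569196) the adult libraries had 0.45, 1.56 and 1.03 CPM and the P10 libraries 7.21, 9.77 and 6.82 CPM, a log2 fold change of -2.97 (SE 0.37, FDR 5.2e-06). Both were steeper than any of the 51 ACS. Among the 6738 Down ACS, they had the ranks 12 and 10 by size of the fall.

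The next 3 Down ACS lie 26.8, 32.1 and 45.4 kb from Tra2a and had log2 fold changes of -1.02, -1.05 and -1.08 (FDR 0.017, 0.058 and 0.010). All adult libraries were below all P10 libraries at each of the 5. The call at 32.1 kb was lost without Adult replicate 4 (FDR 0.22), and the other 4 calls held in each fit without 1 library. The start sites of the listed neighbours were not called. That of Malsu1 had a log2 fold change of -0.04 (SE 0.19) and that of Tra2a 0.19 (SE 0.17). On the Malsu1 side, the ACS 139.1 kb from Tra2a was Up, with 60.7, 38.6 and 49.2 CPM in adults and 36.7, 32.3 and 32.6 CPM in P10 (log2 fold change 0.55, FDR 0.046). This call was lost without Adult replicate 4 (FDR 0.25) or P10 replicate 2 (FDR 0.21).

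**Figure D5:**
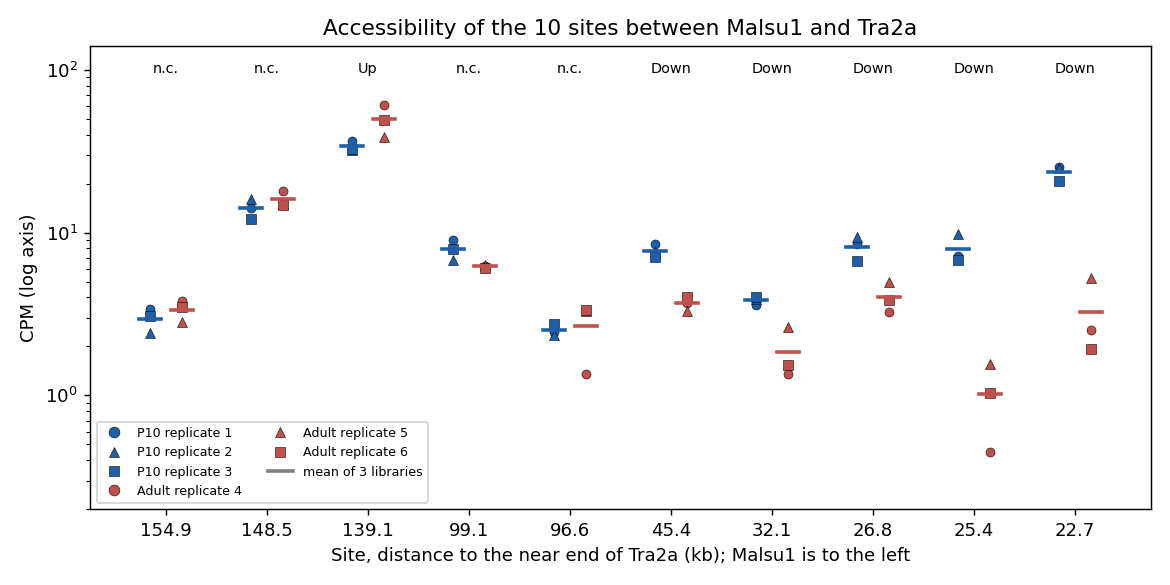
CPM (log axis) of each library at the 10 ACS between Malsu1 and Tra2a, the neighbours of Igf2bp3, ordered by distance to the near end of Tra2a in kb; blue is P10, red is Adult, bars are means of 3 libraries and the words above give the call (n.c., not called). The 5 ACS within 45.4 kb of Tra2a are lower in every adult library, by most at 22.7 and 25.4 kb.

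Between Bves and Hace1, 1 of 5 ACS was called. It lies 22.6 kb from Hace1 (chr20:52238099-52238621) and had 19.7, 17.4 and 15.5 CPM in adults and 6.28, 5.49 and 8.51 CPM in P10. The adult libraries were all higher, with a log2 fold change of 1.37 (SE 0.23, FDR 0.00021), and the call held without each library. The other 4 ACS had log2 fold changes between -0.33 and 0.45. The start site of Hace1 had a log2 fold change of 0.16 (SE 0.16).

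The let-7 microRNAs that LIN28 acts on share 1 seed. All 9 rat let-7 and miR-98 5p sequences in RefSeq read GAGGUAG at bases 2 to 8. The seed is shown in capitals for 3 of those whose genes had an Up ACS.
rno-let-7c-5p: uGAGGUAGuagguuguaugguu
rno-let-7i-5p: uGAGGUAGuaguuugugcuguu
rno-miR-98-5p: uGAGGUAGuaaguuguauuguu
Matched by gene identifier, a choice made after seeing the data, 8 of 13 let-7 and miR-98 genes had ACS, 35 in all, of which 7 were Up and 2 were Down (all ACS, 12.3% and 6.63%), with a median log2 fold change of -0.0028. The ACS 3164 bp downstream of the Mirlet7c1 start (chr11:19711307-19711801) had 16.3, 9.74 and 18.6 CPM in adults and 6.32, 4.57 and 7.82 CPM in P10, with no overlap. Its log2 fold change was 1.24 (SE 0.26, FDR 0.0023). The largest rise of the 35 was at the ACS 136475 bp upstream of Mirlet7f2 (chrX:22005066-22005373). The adult libraries there had 9.49, 7.21 and 5.93 CPM and the P10 libraries 2.46, 1.71 and 2.64 CPM (log2 fold change 1.72, SE 0.30, FDR 0.00032). Mirlet7i had 14 ACS, of which 4 were Up and 1 was Down. The steepest of these lies 92793 bp downstream of its start (chr7:67093029-67093475), with 24.7, 16.7 and 21.8 CPM in adults and 8.09, 6.35 and 4.81 CPM in P10 (log2 fold change 1.71, SE 0.24). The Down ACS of Mirlet7i, 71211 bp downstream, had means of 2.70 ± 1.06 CPM in adults and 5.05 ± 0.92 CPM in P10 (SD, n = 3), with no overlap (log2 fold change -0.93, SE 0.33, FDR 0.080). The other Down ACS lies 14594 bp upstream of Mirlet7a1 and had 0.81, 1.17 and 0.39 CPM in adults and 1.53, 2.64 and 1.16 CPM in P10, just overlapping (log2 fold change -1.10, SE 0.47, FDR 0.16). The 9 ACS of Mirlet7c2 were not called by edgeR, with a median log2 fold change of -0.17.

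Genes around the circuit had calls in both directions, and each count stands against the 12.3% Up and 6.63% Down of all ACS. For genes that process let-7 or work with LIN28, 20 symbols were searched, and some of these are second names of the same gene. ACS were listed with 10 of the symbols, 39 in all, with 4 Up, 3 Down and a median log2 fold change of -0.06. The Up ACS with the smallest p-value lies in Xpo5, which exports microRNA precursors from the nucleus. It had 11.4, 10.1 and 5.41 CPM in adults and 4.70, 3.92 and 2.70 CPM in P10 (log2 fold change 1.26, SE 0.30). An ACS 2932 bp upstream of Ago2, the effector protein of microRNAs, was also Up, by a log2 fold change of 0.71 (SE 0.19). Ago2 held a Down ACS as well. The Down count of this list was 0 without Adult replicate 6 and 1 without P10 replicate 2 or P10 replicate 3. Down calls over all ACS fell too, from 6738 to 5041, 3285 and 4232 in these fits.

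Of 239 ACS at 17 of 19 genes known as targets of let-7, HMGA2 or the IGF2BP proteins, 32 were Up and 20 were Down (all ACS, 12.3% and 6.63%), with a median of -0.02. Irs2 and Igf1r, which carry insulin and IGF signals, held the ACS with the smallest p-values. At Irs2, 161753 bp downstream of the start, adults had 32.1, 30.7 and 36.6 CPM and P10 14.9, 8.35 and 8.67 CPM (log2 fold change 1.63, SE 0.22). At Igf1r, 151458 bp inside the gene, adults had 23.7, 15.6 and 14.8 CPM and P10 5.49, 4.14 and 6.45 CPM (log2 fold change 1.75, SE 0.25). Irs2 and Igf1r also held Down ACS. The Down count of this list fell to 10 without Adult replicate 6 or P10 replicate 3 and to 7 without P10 replicate 2. Down calls over all ACS fell from 6738 to 5041, 4232 and 3285 in the same fits. Of 97 ACS at 6 of 12 other high mobility group genes, 15 were Up and 4 were Down (all ACS, 12.3% and 6.63%), with a median of 0.05. The ACS with the smallest p-values were Up, near Hmgxb4 (log2 fold change 1.74, SE 0.25) and Hmgb2 (1.78, SE 0.29), 241816 and 498408 bp from their starts. Hmgxb4 and Hmgb2 also held Down ACS. The Down count of the high mobility group list was 7 without Adult replicate 6 or P10 replicate 1 and 2 without P10 replicate 2. Over all ACS, 5041, 6892 and 3285 were Down in these fits.

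Marker genes of other cells were measured in the same libraries, as CPM summed over the ACS of a list. Markers of dividing cells, with Mki67 lacking an ACS, had 200.6 to 236.6 CPM in adults and 205.0 to 236.4 CPM in P10, so these ranges overlapped. Mesenchymal markers, all 7 with an ACS, had 413.1 to 473.5 CPM in adults and 403.8 to 416.5 in P10. Immune markers, 4 of 6 with an ACS, had 29.3 to 35.2 CPM in adults and 30.5 to 38.5 in P10. Acinar markers, without Cel, Cela1 and Amy2a3, had 362.3 to 391.0 CPM in adults and 337.2 to 360.0 in P10, just apart. Duct markers, 3 of 5 with an ACS, had 207.7 to 242.5 CPM in adults and 175.4 to 194.1 in P10. Endothelial markers, all 6 with an ACS, had 404.9 to 478.2 CPM in adults and 363.4 to 390.3 in P10. Alpha cell markers were also higher in adults, at 803.9 to 917.8 CPM against 699.7 to 774.6. Neural and glial markers, 2 of 4 with an ACS and none listed at Sox10, were the one list higher in every P10 library, at 10.1 to 12.3 CPM against 7.61 to 9.06 in adults. Beta cell markers had 820.6 to 941.3 CPM in adults and 773.7 to 1062 CPM in P10, and delta cell markers 141.2 to 182.5 and 151.4 to 166.8 CPM. The part of these differences in the values of the 51 ACS was not tested.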

How the data were processed

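The authors mapped the ATAC-seq reads to Rn5 (BWA 0.7.13), kept nuclear reads that mapped well and called peaks once per age with MACS2 2.1.1 on its 3 libraries together. The peaks of both ages were merged, and raw counts of Tn5 integrations in each ACS were deposited for every library. Whether PCR duplicates were removed is not given in the sources used here. The deposited table also holds the authors' fold changes and p-values, which were not used, and the nearest gene, class and distance of each ACS, which were. Distances are those of the table, and the start class lies within 1000 bp.

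From these counts, 101603 distinct ACS of 101941 entries were tested with edgeR 4.0.16 (glmQLFit, glmQLFTest, TMM, no filter on low counts, Benjamini-Hochberg over all ACS) in R 4.3.3, with age as the only term. P-values test the difference between the ages against the spread between 3 libraries per age. The estimate of this spread for an ACS also drew on the other ACS. Named ACS were those called, of the start class, highest in mean count of their gene, or without overlap at a log2 fold change of at least 0.5 in size. Gene sums used the same test, and the comparison of an ACS with the rest of its gene used diffSpliceDGE. Alternatives were other scalings (column sums, median-of-ratios, total sequenced reads, cyclic loess with limma 3.58.1), limma voom, DESeq2 1.42.0, filters on low counts, an FDR under 0.05, repeated entries kept and leaving out each library. The members and gene lists were chosen with earlier results of these data known. Groups and replicate numbers come from the sample titles. Some genes of the marker lists and of the likeness comparison are not reported here.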

Additional observations from a re-analysis of the deposited data

How the results depend on the processing

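The 7 Down ACS of Igf2bp2 were 5 to 10 under the other settings except an FDR under 0.05, where 4 were left. The gene sum of Igf2bp2 and the difference of its ACS at 54812 bp from the rest of the gene kept direction and call in every alternative run for them. With an FDR under 0.05, 0 Up and 5 Down of the 51 ACS were called by edgeR, against 7177 Up and 1945 Down of all ACS. Total sequenced reads as library sizes moved the median log2 fold change of all ACS by -0.83, from -0.01 to -0.84. This gave 0 Up and 35 Down of the 51 and 1062 Up and 61663 Down of all ACS, while the 51 kept their distance to the median of all ACS (-0.13 against -0.12). Under this setting the values turned negative for the ACS of Igf2bp2 at 54812 bp (-0.22), Lin28a at its start (-0.73), Hmga2 at 69617 bp (-0.11) and 333331 bp (-0.70), the Up ACS next to Malsu1 (-0.30), and the sums of Lin28a (-0.79) and Hmga2 (-0.72). Column sums gave 10732 Down of all ACS. Of the 51, 1 was Up with cyclic loess, and 1 was Up and 6 were Down with a mean of at least 50 counts, a filter that kept 24 of them, with a median log2 fold change of 0.0064 against -0.04 for all ACS kept. The sum of Hmga2 turned to -0.014 with cyclic loess and to -0.44 without distal ACS. The sum of Igf2bp1 was not called with cyclic loess (-0.74) or with an FDR under 0.05 (-0.91).

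Leaving out 1 library gave 0 to 2 Up and 7 to 10 Down of the 51, and 7973 to 13232 Up and 3285 to 7215 Down of all ACS. The lowest counts of all ACS came without P10 replicate 2, and 0 of the 51 were Up without Adult replicate 4 or P10 replicate 3. The sum of Igf2bp1 ranged from -1.11 to -0.57. Values that crossed 0 were the start site of Lin28a (-0.15 to 0.65, with -0.08 without Adult replicate 5), its sum (-0.18 to 0.42, with -0.13 without P10 replicate 2) and the ACS of Hmga1 with the highest count (-0.50 to 0.17). The causes were not tested. The adult libraries are shallower, and ACS with few integrations limit what could be called. No paired analysis was possible because the replicate numbers of the groups, 1 to 3 and 4 to 6, are not shared.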

Other observations

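Over the 6 libraries, the genes whose summed accessibility moved most like that of each member were found by Pearson's r on log2 CPM among 13181 genes with a mean of at least 50 integrations. For Igf2bp2 these were Axl (r = 0.9998), Spag7 (0.997) and Anapc2 (0.996), and 1% of genes had an r above 0.962. Among the 3 for Igf2bp1 were Sulf2 (0.989) and Kctd13 (0.986). For Hmga1 they were RGD1564379 (0.994), Aars2 (0.992) and Arih2 (0.991). Among the 3 for Hmga2 were Tex36 (0.985) and Has3 (0.982). For Lin28a they were Tmem161a (0.997), Psmg1 (0.990) and Krtcap3 (0.982). The 6 libraries share the same ages and depths, so these values are a description.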
